A study of Homo sapiens with 8 samples.

Results

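The regions described here are the m6A peaks that lie on human chromosomes 16 and 19, with genes of the ZNF zinc finger family left out. They were taken from the authors' deposited table by chromosome, and any peak whose gene symbol was ZNF followed by a digit was dropped (73 peaks on chromosome 16 and 325 on chromosome 19). This left 2246 of 22626 peaks (9.93%), with 1073 on chromosome 16 and 1173 on chromosome 19. They carry 1208 gene identifiers, and 222 of the peaks have no gene symbol in the file. The 2 chromosomes were chosen by a measured value, the sign of the deposited log2 fold between the arms among called peaks, which was nearly balanced on them in these same data. The balance is therefore described here and not tested.

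The series used HCT116, an established human colorectal carcinoma line, to ask how depletion of ALKBH5 changes the distribution of m6A on RNA. Control cells are labelled sh_NC and of genotype WT, and cells with stable knockdown are labelled sh_AL1 and ALKBH5 knockdown. Each arm has 2 immunoprecipitated (IP) libraries, made with an antibody against m6A, and 2 input libraries, so 8 libraries fall into 4 groups of 2. The labels do not say whether the replicates were separate cultures, whether the stable cells were a pool or 1 clone, or how far ALKBH5 fell.

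N6-methyladenosine (m6A) is placed on nascent mRNA by the METTL3-METTL14 complex, mostly at adenosines within short motifs that end in AC, and it is most frequent in long internal exons and around stop codons. ALKBH5 is a nuclear enzyme that removes the mark, and readers of the YTH family couple it to decay, splicing or translation. In MeRIP-seq the RNA is broken into fragments, the methylated fragments are pulled down with the antibody, and regions where the IP exceeds the input are called peaks.

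The table holds 1 row per peak and no value per library, so neither replicate spread nor read depth can be given for any peak, and the level of ALKBH5 itself was not measured. Each peak has an enrichment (the IP over input ratio), a p for the peak, and a log2 fold between the arms with its false discovery rate (FDR). The file does not say which arm is the numerator, so a fold is given by its sign, with no reading as a gain or loss of m6A. Whether the fold is corrected for the transcript's own level is also not given. A peak is "called" where the deposited FDR of its fold is under 0.05. Of 12 markers of colorectal epithelium, 6 had a peak anywhere in the table (CDH1, CDX2, EPCAM, KRT8, KRT18 and KRT19), against 2 of 6 for mesenchyme, 1 of 5 for leukocytes and 0 of 3 for endothelium; a peak list does not measure the level of a transcript.

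Among the member peaks, 63 reached into the first 50 bases of their annotated gene, 45 of them holding its base 1. Of the 63, 8 were called, and over all peaks the share called was 8.23%. Of these 8, the peaks of ZC3H18, OAZ1 and SNRPA begin after base 1, at bases 31, 24 and 17 of the gene, and the other 5 hold it. The first bases of those 8 genes that lie inside the peak, up to 30, are shown because they are the part of the called regions whose sequence is at hand. They come from RefSeq on GRCh38.p14, are read 5′ to 3′ on the gene's strand, and follow one annotated start per gene, which need not be the start used in HCT116. Capitals mark GAC or AAC, the 3 letters around the methylated adenosine in the commonest m6A motifs, searched on the gene's strand.
UQCRC2 (chr16:21953361-21953390, plus strand): ctccgccaccatcttgctttcctttaatcc
MT2A (chr16:56608584-56608613, plus strand): accacgcctcctccaagtcccagcgAACcc
ZC3H18 (chr16:88570433-88570452, plus strand): agtggagcccgtttgttccg
OAZ1 (chr19:2269509-2269535, plus strand): gcagaggcgccattttgcgAACggcga
SNRPA (chr19:40751219-40751248, plus strand): tggagaagcgggtcctacgcacgctttgtt
U2AF2 (chr19:55655035-55655064, plus strand): agccgaagcggctggagcgggcggcaaggc
GEMIN7-AS1 (chr19:45090362-45090391, minus strand): caaagtgggcggccacacgcacaccctcgt
SLC1A5 (chr19:46788565-46788594, minus strand): agagccacgcggcacgcccgggaggctttc
Only MT2A and OAZ1 of these 8 held a match. Over the 48 of the 63 peaks that held a whole 30-base window, 19 (39.6%) held GAC or AAC, against 49.3% of 35116 RefSeq gene starts; the reverse complements GTC or GTT were in 50% of those starts. A match is a description of the letters and marks no measured site.

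The 8 called peaks at gene starts had both signs. In the authors' deposited table the fold was positive for U2AF2 (log2 fold 3.12), a subunit of the factor that binds the polypyrimidine tract, ZC3H18 (2.54), a nuclear RNA decay adaptor, SNRPA (0.95), a protein of the U1 snRNP, OAZ1 (0.94), the antizyme that targets ornithine decarboxylase, and GEMIN7-AS1 (0.77). It was negative in the authors' deposited table for UQCRC2 (-1.44), a core subunit of respiratory complex III, MT2A (-0.73), a metallothionein, and SLC1A5 (-0.58), the neutral amino acid transporter also known as ASCT2. The OAZ1 peak shares bases with a peak of JSRP1 on the opposite strand and the SLC1A5 peak with 2 unnamed ones, so for both the strand of origin is uncertain. The 63 peaks at gene starts had a median log2 fold of -0.02.

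Mature miRNAs lay inside 2 member peaks. They are shown from RefSeq with the seed, bases 2 to 8, in capitals, and the 3 seeds differ from one another.
hsa-miR-6805-5p: uAGGGGGCggcuuguggagugu
hsa-miR-6805-3p: uUGCUCUGcucccccgcccccag
hsa-miR-1181: cCGUCGCCgccacccgagccg
The peak in RPL28, a protein of the large ribosomal subunit, covers 20 of the 22 bases of hsa-miR-6805-5p and all 23 of hsa-miR-6805-3p, and the authors' deposited table gives it a log2 fold of 0.33 (FDR 0.0372). The CDC37 peak, in the gene of the HSP90 co-chaperone for kinases, spans 5 exon blocks and covers hsa-miR-1181, and the authors' deposited table puts it at a log2 fold of -0.27 (FDR 0.273). The peaks were measured on poly(A)-selected RNA, and the mature miRNAs were not measured.

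Gene density was checked against RefSeq before the label was used, counting all protein-coding genes, ZNF genes included. Chromosome 19 has 24.8 protein-coding genes per Mb, the highest of the 22 autosomes, and chromosome 16 has 9.47, the fourth highest, after chromosomes 17 (14) and 11 (9.63). By peaks per Mb, with those of ZNF genes left out, chromosome 19 (20) and chromosome 16 (11.9) ranked 1 and 3 of the 22. "Gene-dense" therefore describes chromosome 19 plainly, and chromosome 16 only as one of several chromosomes of near density.

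Called peaks made up 219 of the 2246 members (9.75%), on 192 genes, beside 8.23% of all peaks in the table. Positive folds numbered 116 and negative ones 103, so 53% of the called members were positive (95% exact Clopper-Pearson interval 46.1 to 59.7). These intervals cover counting error only, and peaks of 1 gene or of overlapping rows are not independent. Over all peaks 5.74% were called positive and 2.49% called negative. Under other call rules the members gave 126 peaks at an FDR of 0.01 (64 positive, 62 negative, 5.61% of members beside 4.95% of all peaks), and 510 at an unadjusted p of 0.05 (22.7% beside 19.9%). With the deposited p doubled and adjusted again 169 members were called (7.52% beside 6.36%), and with an absolute log2 fold of at least 1 they were 118 (58 positive, 60 negative, 5.25% beside 4.68%). On the other 20 autosomes, again without ZNF genes, 1547 of 18864 peaks were called (8.2%), with 1107 positive and 440 negative, a positive share of 71.6% (69.2 to 73.8). The shares differed by -18.6 percentage points, members minus other autosomes, and the rule itself rests on that difference.

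Both chromosomes had a low share. Chromosome 19 had 57 positive and 55 negative called peaks, 50.9% positive (41.3 to 60.5), the lowest of the 22 autosomes. Chromosome 16 had 59 positive and 48 negative, 55.1% (45.2 to 64.8), the second lowest. The lowest of the others, chromosome 9, was close to chromosome 16 at 55.8% (44.1 to 67.2), and the median of the 20 others was 73.5%. Chromosome 17, the second most gene-dense, stood at 67.8% (59.6 to 75.2), chromosome 11 at 66.7% and chromosome 22 at 61.8%.

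**Figure D1:**
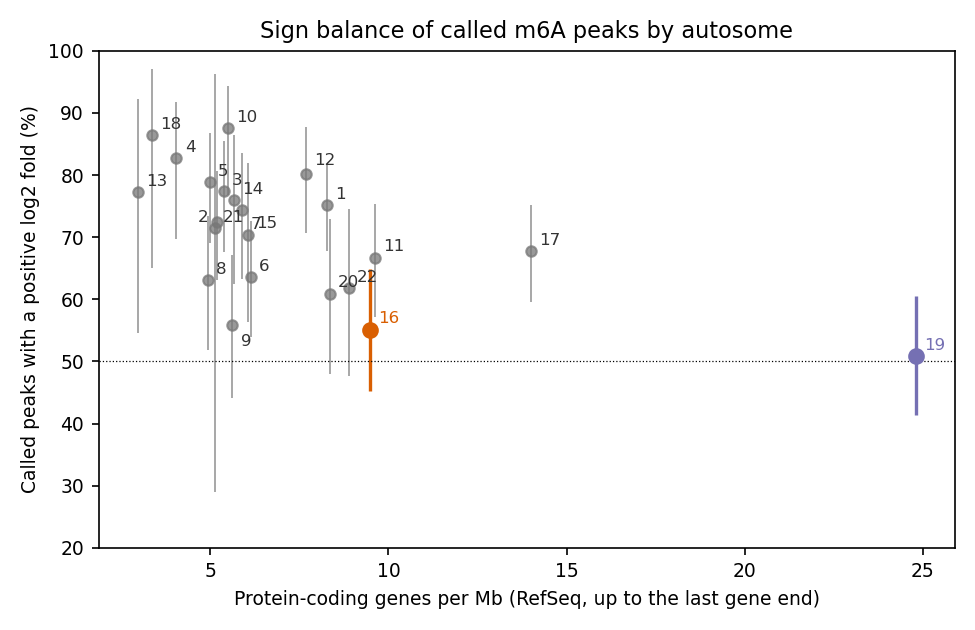
Share of called peaks with a positive log2 fold (vertical axis, percent, 20 to 100) against protein-coding genes per Mb (horizontal axis) for the 22 autosomes. Peaks of ZNF genes are left out of the shares, while the gene density counts all protein-coding genes. Points are chromosomes, numbered, and bars are 95% exact binomial intervals. Chromosomes 19 (50.9%) and 16 (55.1%) have the lowest shares, and chromosome 17, at 14 genes per Mb, stands at 67.8%.

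The folds of all member peaks, called or not, were lower as well. In the authors' deposited table their median log2 fold was 0.02 (quartiles -0.58 and 0.65), beside 0.15 on the other autosomes and 0.14 over all peaks. Chromosome 16 had a median of 0.09 and chromosome 19 of -0.03, while the 20 other autosomes ran from 0.09 (chromosome 11) to 0.22 (chromosome 12). Positive folds made up 53.5% of all peaks on chromosome 16, 47.8% on chromosome 19 and 56% on the other autosomes. The 20 others ran from 53.3% (chromosome 21) to 60% (chromosome 12), with chromosome 16 inside that range and chromosome 19 below it. Because the chromosomes were chosen by their called peaks, a larger difference in called peaks than in all peaks is no separate trait. Among called members with an absolute log2 fold under 0.5 the signs were 12 and 12, from 0.5 to 1 they were 46 positive and 31 negative, from 1 to 2 they were 44 and 46, and at 2 or more they were 14 and 14.

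**Figure D2:**
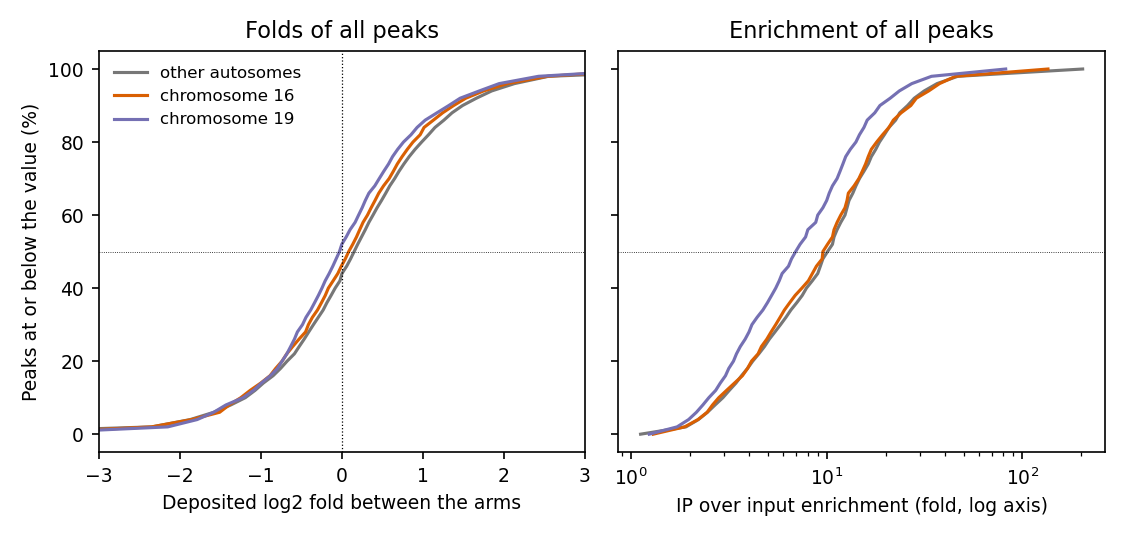
Cumulative share of all peaks (vertical axes, percent) by deposited log2 fold (left) and by IP over input enrichment (right, log axis) for chromosome 16, chromosome 19 and the 20 other autosomes, each without ZNF genes. The chromosome 19 curve lies to the left in both panels, with medians of -0.03 and 6.94, and chromosome 16 runs near the other autosomes in enrichment (9.56 and 10.1).

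Measures that the rule did not use are given next, as descriptions. The median enrichment in the authors' deposited table was 8.27 for the members, 9.56 on chromosome 16, 6.94 on chromosome 19 and 10.1 on the other autosomes. Chromosome 19 had the lowest median of the 22, below the lowest of the others (9.17, chromosome 17). Of member peaks centred in a matched gene, 31.1% lay within 1000 bases of its annotated 3′ end (29.1 to 33.2), with 27.3% on chromosome 16 and 34.6% on chromosome 19, against 21.4% elsewhere and 14.6% to 26.7% over the 20 other autosomes. The span of the gene around each peak, counted once per peak, had a median of 28.9 kb on chromosome 16. It was 18.4 kb on chromosome 19, beside 40.7 kb elsewhere. Chromosomes 17 (28.7 kb) and 11 (28.8 kb) match chromosome 16 in span, and the 20 others run from 28.7 to 66.9 kb. A fixed distance takes a larger part of a shorter gene, and the part of gene span in the 3′-end share was not tested. Peaks that join exons across a junction were 26.7% of the members (24.8 to 28.6) and 31.8% of the peaks elsewhere, with 25% to 35.9% over the 20 other autosomes. A base was shared with another peak for 21.9% of members and 17.1% of the others, with 10% (chromosome 4) to 26% (chromosome 15) over the 20, so the members lie within the range of the others in both of these shares.

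Called positive and called negative members differed in how often they joined exons. Junction-spanning peaks were 39.7% of the positive ones (30.7 to 49.2) and 20.4% of the negative ones (13.1 to 29.5), and on the other autosomes 45.5% and 33%. The gap was that of chromosome 16, at 47.5% (34.3 to 60.9) against 14.6% (6.07 to 27.8), while chromosome 19 had 31.6% (19.9 to 45.2) against 25.5% (14.7 to 39), with overlapping intervals. Enrichment was close in the 2 signs, with medians of 5.7 and 5.83 in the authors' deposited table, and both lay under the 8.74 of uncalled members. Median exonic length was also close, at 418 and 419 bases, against 271 for uncalled members. Negative peaks shared a base with another peak in 33% of cases and positive ones in 22.4%, but the 2 chromosomes went opposite ways, with 45.8% and 20.3% on chromosome 16 and 21.8% and 24.6% on chromosome 19.

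Read the other way, 46 of the 67 called members that span a junction were positive (68.7%, 56.2 to 79.4), against 70 of the 152 within 1 exon block (46.1%, 37.9 to 54.3). Chromosome 16 had 80% (63.1 to 91.6) against 43.1% (31.4 to 55.3), and chromosome 19 had 56.2% (37.7 to 73.6) against 48.8% (37.4 to 60.2), so the pooled split was mostly that of chromosome 16. The same shares elsewhere were 77.7% and 67.1%. Members near the 3′ end were 48.5% positive and those elsewhere in the gene 55%, while the other autosomes had 75.4% and 68.9%. Genes with 1 peak had a positive share of 61.4%, those with 2 or 3 peaks 44.8% and those with 4 or more 59.1%, beside 75.9%, 72.2% and 63.1% on the other autosomes.

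The balance was also split by enrichment, in 5 equal classes of all peaks. In the 3 lower classes, up to an enrichment of 12.2, the members' positive shares were 56.8%, 46.4% and 39.4%, against 76.2%, 69.5% and 66.7% elsewhere. In the 2 upper classes the shares were 66.7% and 68.8% for the members and 67.9% and 71% for the others, but only 27 and 16 called members lie there, with intervals of 46 to 83.5 and 41.3 to 89. The 2 chromosomes differed there: chromosome 16 had 73.3% (11 of 15) and 75% (9 of 12). Chromosome 19 had 58.3% (7 of 12) and 50% (2 of 4), below the others in both classes. By the peak's own p, the shares of the members were 59.6%, 35.6%, 59.3% and 46.7% from the strongest class to the fourth, with 4 of 4 positive in the weakest, against 73.2%, 67.7%, 72.9%, 65.5% and 82.9% elsewhere. The part of depth and transcript level in these shares was not tested, since no value per library is given.

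**Figure D3:**
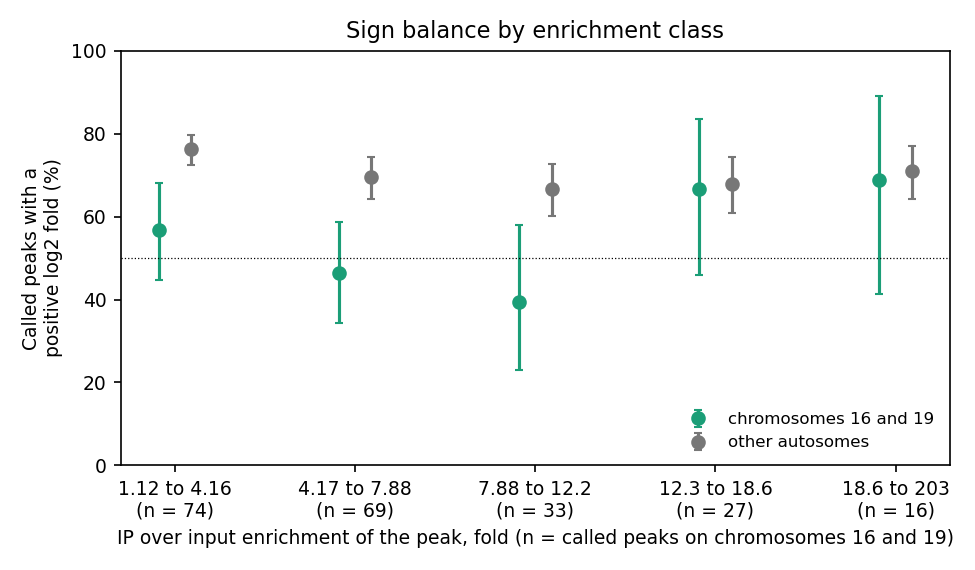
Share of called peaks with a positive log2 fold (vertical axis, percent) in 5 classes of IP over input enrichment (horizontal axis, fold), for chromosomes 16 and 19 together and for the 20 other autosomes; bars are 95% exact binomial intervals and n counts the called member peaks. The members lie lower in the 3 classes up to 12.2 and, pooled over the chromosomes, near the others in the 2 upper ones, where they number 27 and 16. In those 2 classes chromosome 16 alone had 73.3% and 75%, and chromosome 19 alone 58.3% and 50%.

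By chromosome position, 3 stretches had unequal numbers of the signs, and they were picked after their counts were seen. On chromosome 16 from 20 to 40 Mb, 18 of 196 peaks were called (9.18%, beside 8.23% of all peaks). Of these 18 called peaks 15 were negative, and 12 of 15 when overlapping rows were joined. They include IL4R, MAZ, TAOK2, YPEL3, SRCAP, RNF40 and PRSS8, with TUFM and TRIM72 among the positive ones. From 60 to 70 Mb on the same chromosome, 14 of 111 peaks were called (12.6%). Of these 14, 13 were positive, and E2F4 was the exception. With overlapping rows joined, 11 of 12 loci were positive. CDH1, TERF2 and the pseudogene RPS27AP16 each appear more than once among the positive peaks. That stretch holds CDH1, CDH3, ESRP2, TERF2, NIP7, NFAT5, SNTB2 and NOB1. On chromosome 19 beyond 50 Mb, 9 of 129 peaks were called (6.98%). All 9 (8 loci) were positive, U2AF2, TNNI3, RPL28, MYADM, NLRP2 and CHMP2A among them. The median log2 fold of all peaks in the 3 stretches was -0.05, 0.22 and 0.02 in the authors' deposited table. Their uncalled peaks were 88 positive and 88 negative, 56 and 41, and 56 and 62.

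The largest positive folds among called peaks of named genes, pseudogenes left out, fell on genes of several functions. U2AF2 and SF3B3 among them are both splicing factors. In the authors' deposited table the highest of these was that of C16orf46 (log2 fold 3.81, FDR 0.000151), which overlaps 2 unnamed peaks on its own strand. MC1R, the melanocortin receptor of pigment cells, followed in the authors' deposited table at 3.70 (FDR 0.0347), and its peak overlaps an unnamed one on the opposite strand. NIP7, a ribosome biogenesis factor, had 3.59 (FDR 0.000158) at chr16:69341420-69341913 in the authors' deposited table, with an enrichment of 27.8. Next in the authors' deposited table came U2AF2 and ZC3H18, described above, then GYS1, muscle glycogen synthase (2.41), MAST3, a microtubule-associated kinase (2.28), TNNI3, cardiac troponin I (2.24), SF3B3, of the U2 snRNP (2.05), and TERF2, the shelterin protein that binds telomere repeats (1.97). Their FDR in the authors' deposited table ran from 4.79e-09 for TNNI3 to 0.0347 for MC1R. The MC1R call is lost when the deposited p is doubled.

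The largest negative folds, again among called peaks of named genes without pseudogenes, included signalling and transcription genes. UBN1, a subunit of the HIRA histone chaperone complex, had the lowest log2 fold in the authors' deposited table, -4.19 (FDR 0.00832). TBC1D24 (-3.25), a Rab GTPase-activating-like protein, PLLP (-3.19), the membrane protein plasmolipin, and TAOK2 (-3.05), a kinase upstream of p38, followed in the authors' deposited table. YPEL3 (-2.83), GLIS2 (-2.76), a Krüppel-like zinc finger factor, ZFPM1 (-2.37), the GATA1 cofactor FOG1, LRRC8E (-2.31), a subunit of the volume-regulated anion channel, IRF3 (-2.24), the interferon regulator, and IL4R (-2.23), the interleukin 4 receptor, complete the 10 in the authors' deposited table. GLIS2 and LRRC8E overlap unnamed peaks on the opposite strand. The fold of YPEL3 is no longer called with p doubled.

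Ranked by p, the folds were smaller. ZFP36, also known as tristetraprolin, which binds AU-rich elements and recruits the deadenylase, had a log2 fold of -1.09 with an FDR of 3.98e-74 at chr19:39407886-39408245 in the authors' deposited table. Its other peak, at chr19:39408514-39408903, had -0.85 (FDR 1.26e-15) in the authors' deposited table, so both peaks of the gene were negative. EEF2, the translocase of elongation, followed with -0.21 (FDR 1.26e-22) in the authors' deposited table, then GOT2, mitochondrial aspartate aminotransferase, with 1.53 (FDR 1e-18). RPL13 had 0.48 (FDR 1.58e-18) and SLC7A5, the LAT1 amino acid transporter, -0.43 (FDR 2e-17) in the authors' deposited table. A second SLC7A5 peak was also negative (-0.20, FDR 0.0141) in the authors' deposited table. The peaks strongest by their own p were those of COG8 and PDF, which are rows of the same locus at a log2 fold of -0.01 and 0.00, EEF2, RPL13A (0.29) and DNAJB1 (0.29), in the authors' deposited table. The call threshold fell between ATP6V0C (-0.30) and LITAF (0.56), both at FDR 0.049 and called, and ABAT (3.50, FDR 0.0501) and SEPHS2 (0.40, FDR 0.0513) in the authors' deposited table.

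Of 25 lists of related genes, 489 genes with 967 member peaks were covered, with 63 called positive and 54 called negative. Genes of RNA splicing and the hnRNPs had 78 peaks on 29 genes, of which 13 were called positive and 5 negative (23.1%, beside 8.23% of all peaks). Their median log2 fold was 0.13 in the authors' deposited table, near the 0.14 of all peaks. Next to U2AF2 and SF3B3, PTBP1, the repressor of exon inclusion that binds pyrimidine tracts, was positive at 1.68 (FDR 0.000195) in the authors' deposited table, with its peak centred 135 bases from the 3′ end of the gene. SUGP2 (1.10) and ESRP2, the epithelial splicing regulator (1.14), were also positive in the authors' deposited table. SF3A2 (-1.45), of the U2 snRNP, and LSM7 (-0.67), of the Sm-like rings, were negative in the authors' deposited table. AKAP8L, KHSRP and SRRM2 had called peaks of both signs, and DHX38, a splicing helicase (-0.05), and PRPF31, of the tri-snRNP (-0.17), were not called in the authors' deposited table.

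Transcription factors outside the ZNF family went the other way. They had 81 peaks on 33 genes, with 1 called positive and 10 called negative (13.6% called) and a median log2 fold of -0.25 in the authors' deposited table. The 10 negative peaks fall on 8 genes, GLIS2 and IRF3 among them, and the pair in JUND overlap each other and are 1 locus. CIC, the repressor of receptor tyrosine kinase target genes, had -2.07 (FDR 0.00257), and E2F4, the repressive E2F, -1.21 (FDR 4.68e-07) in the authors' deposited table. MAZ had -1.03 (FDR 0.000398) in the authors' deposited table, but overlaps an unnamed peak on the opposite strand. The immediate-early and Krüppel-like genes had small negative folds in the authors' deposited table: KLF2 -0.50, JUND -0.46 and -0.45, JUNB -0.28 and -0.29. The peak of JUNB at -0.29 overlaps HOOK2 on the opposite strand. NFAT5, the factor of the osmotic stress response, was the positive exception at 1.32 (FDR 0.0468) in the authors' deposited table, and it is not called with p doubled. CEBPG (0.27) and NR2F6 (-0.26) had the strongest uncalled peaks of the list in the authors' deposited table.

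Cytoplasmic ribosomal proteins had 14 peaks on 10 genes, with 5 called, all positive, and none negative (35.7% called). Their folds were small in the authors' deposited table: RPS19 0.54, RPL13 0.48, RPL36 0.42, RPL28 0.33 and RPL13A 0.29. RPS2 (0.07) and RPS15A (0.02) were not called in the authors' deposited table. Reads of ribosomal protein genes can be shared with their processed pseudogenes, so these values are uncertain. Annotated pseudogenes of any family on these chromosomes had 42 peaks. Of these, 4 were called, all positive, beside 8.23% called of all peaks. The list of RNA polymerase subunits and general factors had 3 called among 37 peaks (8.11%, about the 8.23% of all peaks) and a median log2 fold of 0.03 in the authors' deposited table. All 3 were positive in the authors' deposited table, with GTF2F1 at 1.85, POLR2C at 1.02 and POLR1G, which overlaps ERCC1 on the opposite strand, at 0.69. POLR2C and POLR1G are not called with p doubled. RNA helicases and decay factors were mixed: DHX34, of nonsense-mediated decay, had 1.31 and LSM4 0.48, against ZFP36 and LSM7, in the authors' deposited table.

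Lists of protein folding, membrane traffic and DNA repair had more positive than negative called peaks, as do all peaks of the table (5.74% and 2.49%). Their shares called were 14%, 8.57% and 12.2%, beside 8.23% of all peaks. Chaperones and the proteasome had 5 positive and 1 negative called peaks among 43, with PSMD7 (0.90, overlapping an unnamed peak on the opposite strand), DNAJA3 (0.77) and CALR (0.35) positive in the authors' deposited table. Membrane traffic genes had 5 positive and 1 negative among 70, where USE1 (1.94), VPS35, of the retromer (1.70), and RAB3D (1.69) stood against TBC1D24 in the authors' deposited table. DNA replication and repair genes had 4 positive and 1 negative among 41: TERF2 (1.97 and 0.95) and the ubiquitin ligase RFWD3 (1.92) were positive, and MPG, the alkyladenine glycosylase whose peak overlaps NPRL3 on the opposite strand, was negative (-1.45), in the authors' deposited table. Ubiquitin and SUMO enzymes were near balance, at 5 and 4 among 68 peaks (13.2%).

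The MAP kinase, innate immune and mitosis lists had negative calls and no positive ones. The 3 called peaks of MAP kinase and growth factor genes among 40 were ARHGAP17 (-1.66), TGFB1 (-1.37) and MAP2K2, the kinase MEK2 (-0.95), in the authors' deposited table. The innate immune list had 3 of 38, IRF3 and the 2 called peaks of IL4R (-1.64 and -2.23), in the authors' deposited table. Mitosis and cell cycle genes had 2 of 38, both in TUBB4A, a beta-tubulin (-1.22 and -0.99 in the authors' deposited table). Among growth factor genes, GDF15, a stress-induced cytokine, had one of the strongest uncalled peaks (-0.14, FDR 0.262) in the authors' deposited table. These shares called (7.5%, 7.89% and 5.26%) lay under the 8.23% of all peaks. The PI3K, mTOR and Wnt list had 1 of each sign among 33 peaks (6.06%), with MARK4, a microtubule affinity-regulating kinase, at 1.95 and PIK3R2, a regulatory subunit of PI3K, at -1.05, in the authors' deposited table. PIK3R2 is not called with p doubled.

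**Figure D4:**
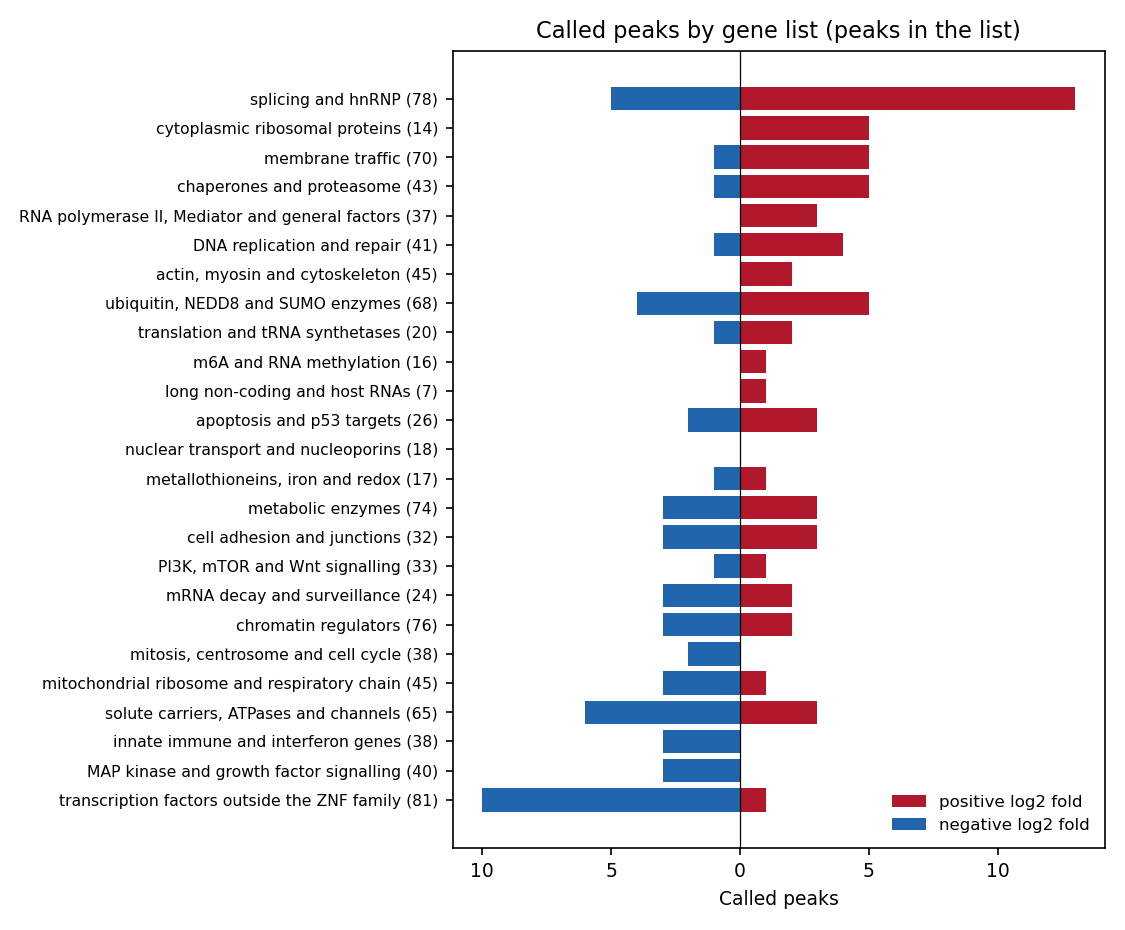
Called member peaks with a positive (red, to the right) and a negative (blue, to the left) log2 fold in each of 25 gene lists, with the number of member peaks of the list in parentheses; the horizontal axis counts peaks. Splicing genes (13 positive, 5 negative) and transcription factors (1 positive, 10 negative) lie at the 2 ends.

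Transporters, metabolism and mitochondria were mixed, and the shares called of metabolic enzymes (8.11%) and mitochondrial genes (8.89%) were near the 8.23% of all peaks. Solute carriers, ATPases and channels had 3 positive and 6 negative called peaks among 65 (13.8%), with SLC35E1 at 1.02 and the fatty acid transporter SLC27A1 at -0.84 in the authors' deposited table. Metabolic enzymes had 3 of each sign among 74: beside GYS1 and GOT2 stood ACSF3 (-1.75), ST3GAL2 (-1.48, overlapping an unnamed peak on the opposite strand) and MVD, of the mevalonate pathway (-1.38), in the authors' deposited table. Mitochondrial genes had 1 positive and 3 negative among 45: FDX2 (-1.63), UQCRC2 and GFER (-1.16, overlapping an unnamed peak on the opposite strand) were negative and TUFM, the mitochondrial elongation factor, positive (0.92, FDR 1.26e-12) in the authors' deposited table. Adhesion genes also had 3 of each, among 32 (18.8%): E-cadherin, CDH1, had 2 positive peaks (1.15 and 0.88) and P-cadherin, CDH3, 1 (0.66), against NECTIN2 (-1.49) and the membrane protease PRSS8 (-0.73, overlapping an unnamed peak on the opposite strand), in the authors' deposited table. Apoptosis genes had 3 positive and 2 negative among 26 (19.2%). TNFRSF12A (0.63) and PPP1R15A, the stress-induced phosphatase subunit GADD34 (0.42), were positive, and DAPK3 (-1.01) and TNFSF9 (-0.61) negative, in the authors' deposited table. Nuclear transport genes had no called peak among 18, with a smallest FDR of 0.13 in the authors' deposited table.

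Of the m6A and RNA methylation list, 8 genes had a peak on these chromosomes. They held 16 peaks, of which 1 was called (6.25%, under the 8.23% of all peaks). FTO, the other known m6A demethylase besides ALKBH5, was the single called gene among them, where the authors' deposited table gives 1.72 (FDR 0.0468) with an enrichment of 13. Its peak joins 2 exon blocks at chr16:53826046-53844189, about 29.3% of the way along the gene, and it is not called with p doubled. ELAVL1, the RNA-binding protein HuR (-0.08), and the DNA methyltransferase DNMT1 (0.56) were not called in the authors' deposited table. The lncRNA UCA1 had a called peak of 0.31 in the authors' deposited table that overlaps LINC01764 and an unnamed peak on the opposite strand.

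Genes with several called peaks could hold both signs. Of 20 member genes with at least 2 called peaks, 5 were all positive, 7 all negative and 8 had both (40%), beside 34 of 144 (23.6%) on the other autosomes, where 85 were all positive and 25 all negative. The 2 chromosomes were chosen by the signs of called peaks, so these counts are not independent of that choice and show no separate trait. DNAJB1, an HSP40 co-chaperone, had 2 positive peaks near its 3′ end (0.93 and 0.29, centred 255 and 1199 bases from it) and a negative one (-0.59) at 2024 bases in the authors' deposited table. KHSRP, a KH-domain splicing and decay factor, had 1.26 at 656 bases from the 3′ end and -0.72 at 2178 bases in the authors' deposited table. SLC1A5 had 0.79 at 654 bases from the 3′ end and -0.58 at the gene start in the authors' deposited table. NACC1, a BTB-domain repressor, had the other order, with -1.63 at 240 bases, 0.60 at 2832 and -0.70 at 5586 in the authors' deposited table.

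The other 4 genes were AKAP8L (1.22 and -1.17), KIAA0513 (1.91 and -1.18), LRRC8E (1.28 and -2.31) and SRRM2, the large SR-related splicing protein (0.64, 0.60 and -0.36), in the authors' deposited table. The called peak nearest the 3′ end was negative in KIAA0513, LRRC8E and SRRM2, as in NACC1, and positive in AKAP8L, so the 8 genes showed no common order. Distances are along the genome, and the isoform a peak belongs to is not given. The negative peaks of KIAA0513 and SRRM2 and the positive one of NACC1 are not called with p doubled, which leaves called peaks of both signs in 5 of the 8 genes.

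**Figure D5:**
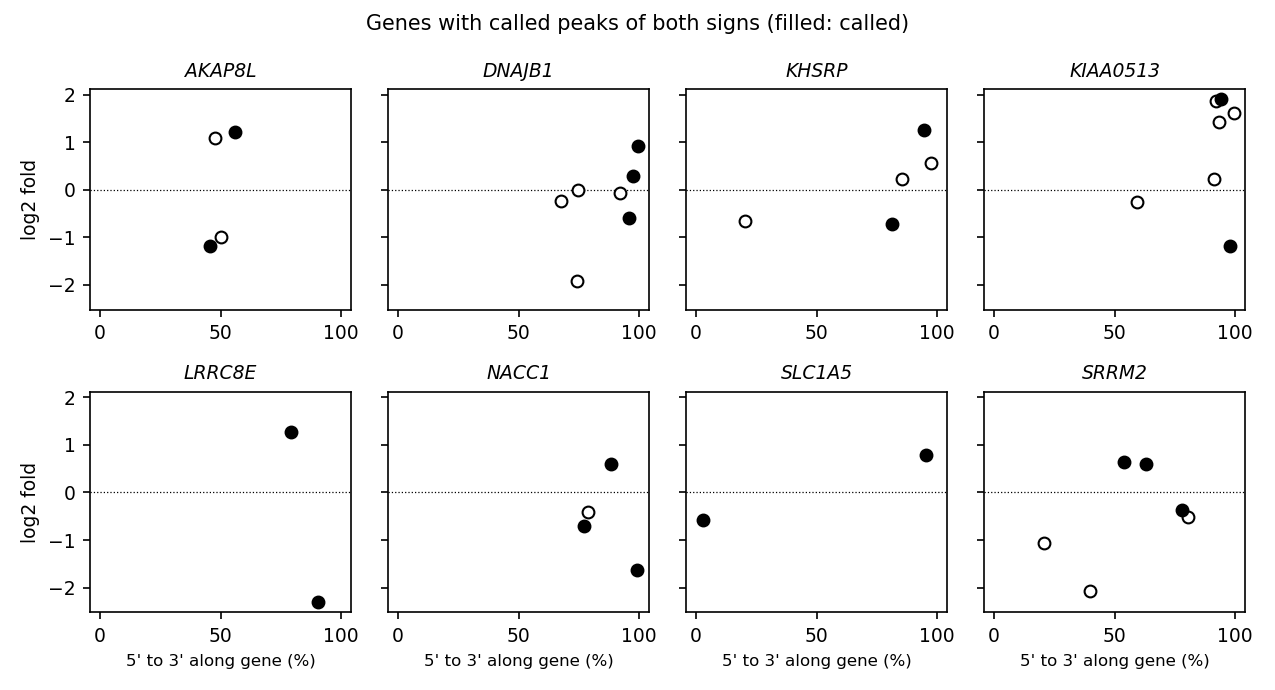
Deposited log2 fold (vertical axes) of each peak against its place along the gene from the annotated 5′ end to the 3′ end (horizontal axes, percent of the gene's span) for the 8 genes with called peaks of both signs; filled points are called and open points are not. In KHSRP and SLC1A5 the called peak nearer the 3′ end is the positive one, and in NACC1 and LRRC8E it is the negative one.

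The genes with the most peaks differed in their number of calls, beside a share called of 8.23% over all peaks. SPG7, the mitochondrial protease paraplegin, had 13 peaks and ZFHX3, a homeodomain factor, 11, and none of these was called. ANKRD11 had 10 with 1 call (-1.13), UBN1 8 with 1 call, and CIRBP, the cold-inducible RNA-binding protein, 7 with 1 call (-1.72) in the authors' deposited table. DNAJB1, described above, also had 7 peaks but 3 calls, and KIAA0513 had 7 with 2 calls. The 8 peaks of UBN1 ran from -4.19 to 1.48 in the authors' deposited table, and its strongest peak by enrichment (135) was not called at 0.52. Over all 125 called peaks named by the rule or added to it, 98 were called with p doubled and 27 were not, and none changed sign when the median of all peaks was subtracted. Beside those marked above, the calls lost include DHX34, SF3A2, LSM7, ESRP2, RPL28, PPP1R15A and DNAJA3. TRIM72, ARHGAP17, GFER, ST3GAL2, SLC27A1, ATP6V0C and LITAF are lost as well.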

How the data were processed

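Peaks of 8 MeRIP-seq libraries were analysed from the authors' 1 deposited list of exonic blocks, which holds no value per library, so the planned tests across libraries were not run. In the submitters' processing notes stand GRCh38, BWA 0.7.12 and, for an unstated step, HOMER 4.9.1; the peak caller, read depth and strand handling are not given in the sources used here. Per the file headers, the authors' columns are a peak p-value, its log10 and the log10 FDR (kept as a score), a fold enrichment ratio, and a log2 fold between arms with its own p and FDR as a score. The deposited p reaches only 0.773, and whether it is one-sided is not given. Antibody, fragment size and sequencer are each given in more than 1 form in the labels' protocols.

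Coordinates are 1-based on GRCh38. Genes were matched by symbol and chromosome to RefSeq GRCh38.p14 (2023 of 2246 peaks). Shares have exact Clopper-Pearson 95% intervals; no test was made, because the members were defined on this contrast. Counting code was tested on simulated data. Python 3.11.15, pandas 2.3.3, numpy 2.4.6, scipy 1.17.1 and matplotlib 3.10.9 were used.

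The members and lists were chosen with earlier results of these data known. The rule for naming genes took the 10 largest called folds of each sign (1 for each gene, without unnamed loci or pseudogenes), the 5 smallest p, genes with both signs, the 6 genes with most peaks, the 5 strongest peaks, up to 4 called and 2 uncalled genes per list, FTO, and 2 peaks on each side of the threshold. The 3 stretches, peaks at gene starts and on miRNAs, and peaks of JUNB, JUND, KLF2, MAZ, E2F4, ESRP2, SNRPA, SUGP2, OAZ1, SLC7A5, ZFP36, TUBB4A, PPP1R15A and MVD, with the second peaks of IL4R, TERF2, SF3B3 and CDH1, were chosen after their values were seen. With values known, 6 genes were taken off lists where they did not belong (CDH1, UBN1 and PDXDC1 from ubiquitin enzymes, KXD1 from actin, TRIM72 from innate immunity, LMTK3 from membrane traffic). Certain items are not reported here.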

Additional observations from a re-analysis of the deposited data

How the results depend on the processing

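The member share of positive called peaks stayed 15.3 (peaks sharing no base with another) to 24 (FDR of 0.01) points below that of the other autosomes over 13 alternatives, 2 of them chosen after seeing the data. In difference terms, members minus others, these were -15.3 and -24. The number of called members changed most with the threshold: 126 at an FDR of 0.01, 510 at an unadjusted p of 0.05, 118 with an absolute log2 fold of at least 1, and 169 with p doubled and adjusted again. It was 107 on chromosome 16 alone and 112 on chromosome 19 alone, by their smaller number of peaks. The share of the other autosomes was 74.8% at an FDR of 0.01, 66.3% at an unadjusted p of 0.05 and 73.9% with p doubled; the cause was not tested. The difference between the shares kept its sign in the alternatives run, but the member majority turned with an absolute log2 fold of at least 1, to 49.2% positive (58 positive, 60 negative).

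No paired analysis was possible because the deposited table holds no value per library, and for the same reason leaving out a replicate was not run. Depth is unknown, so no peak has an error of its own, and the intervals printed cover counting only. Sequence beyond gene starts and miRNAs was not analysed here.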
